A study of Mus musculus with 4 samples.

Results

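The genes described here encode the channels and gap junction proteins through which the heartbeat is started, passed on and coupled to contraction: the calcium channel genes Cacna1c, Cacna1g, Cacna2d1 and Cacnb2, the pacemaker channel genes Hcn2 and Hcn4, and the connexin genes Gja1 and Gja5. They were taken as every probe set of the array whose annotation lists 1 of these 8 symbols and no other. This gave 18 probe sets of 7 genes, out of 45037 probe sets and 18193 genes in all. Hcn4 had no such probe set and was not analysed here. The probe sets were taken by gene name, and the genes were listed with earlier results of these data known.

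The knock-in hearts carry the substitution S21A in the kinase GSK-3α, in which alanine replaces serine 21. Akt and related kinases phosphorylate this serine and thereby hold the enzyme back. The other group was wild-type heart. All mice were C57B6, aged 3.6 months and sampled at baseline, and each group had 2 Affymetrix arrays of 1 colour. The labels give neither zygosity nor sex, and leave unsaid whether the tissue included the atria and whether the arrays of a group came from different animals, so n counts arrays.

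As background, a heartbeat begins in the sinoatrial node, where HCN channels, opened by hyperpolarisation and by cyclic AMP, and T-type calcium channels help to bring the membrane to threshold. The impulse spreads through connexin channels at the intercalated discs, mainly Cx43 (Gja1) in working myocardium and Cx40 (Gja5) in atria, the ventricular conduction system and arterial endothelium. In each myocyte the L-type calcium channel, formed by a pore subunit with auxiliary β and α2δ subunits, then admits the calcium that triggers contraction.

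Shown here are the sequences just upstream of the transcription starts of Gja1 and Gja5, the connexin genes among the members. These sequences were picked because a probe set of Gja1 held the smallest p among the members. Each is the 250 bases before the start given by RefSeq on GRCm38.p6, plus strand, at chr10:56377050-56377299 for Gja1 and chr3:97032152-97032401 for Gja5. Capitals mark matches on either strand to the AP-1 motif, searched as TGANTCA, or to a motif of the GATA factors, searched as AGATAA.
Gja1: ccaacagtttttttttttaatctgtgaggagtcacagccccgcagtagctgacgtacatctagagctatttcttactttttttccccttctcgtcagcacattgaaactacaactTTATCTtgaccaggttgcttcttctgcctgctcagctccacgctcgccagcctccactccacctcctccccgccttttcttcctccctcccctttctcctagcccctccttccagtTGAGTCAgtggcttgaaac
Gja5: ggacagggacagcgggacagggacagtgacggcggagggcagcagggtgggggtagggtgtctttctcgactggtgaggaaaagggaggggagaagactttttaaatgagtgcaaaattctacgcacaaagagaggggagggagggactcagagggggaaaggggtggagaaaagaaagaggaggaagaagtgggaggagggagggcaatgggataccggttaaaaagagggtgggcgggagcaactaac
The Gja1 window held 1 match to each motif, and the Gja5 window held 0. Among all 32851 RefSeq windows of this length, 6.75% held TGANTCA and 9.99% held AGATAA. The TCF/LEF core CTTTGA was found in neither connexin window and in 13.8% of all windows. The TATA box, searched as TATAAA, was likewise in neither and in 12.4% of all windows. The same was true of a T-box core, searched as GGTGTG, which 16.3% of all windows held. Both strands were searched for each motif. Of the 10 windows found for the members, 1 held CTTTGA, a Cacnb2 window with 2 matches. The Gja1 window was 50.0% and the Gja5 window 56.4% G or C, against a median of 52.4% over all windows. These matches describe letters only, and no binding was measured here.

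None of the 7 measured channel and connexin genes rose or fell past the test. Of the 18 probe sets, 0 passed an adjusted p of 0.05 (limma, adjusted over all 45037 probe sets), where 0.00666% of all probe sets did. At an unadjusted p under 0.05, 1 member probe set was higher and 0 lower, against 5.07% and 5.62% of all probe sets. Adjusted p-values of the members lay between 0.461 and 0.945. By the brightest probe set of each gene, 4 of 7 genes had a higher mean in knock-in hearts, where 46.9% of all genes did. Their log2 differences, knock-in minus wild-type, ran from −0.19 to 0.19.

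The intervals describe the precision of the limma fit with 2 arrays a group. They are unadjusted and do not exclude larger differences. For each of the 7 brightest probe sets, the 95% interval of the log2 difference lay within a 1.5-fold change in either direction, between −0.55 and 0.45 over all of them. The same held for 82.4% of all genes. Over the 18 probe sets the interval lay within 1.5-fold for 14, against 80.8% of all probe sets. In bulk heart RNA, fewer cells of a type and less RNA per cell cannot be told apart.

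**Figure D1:**
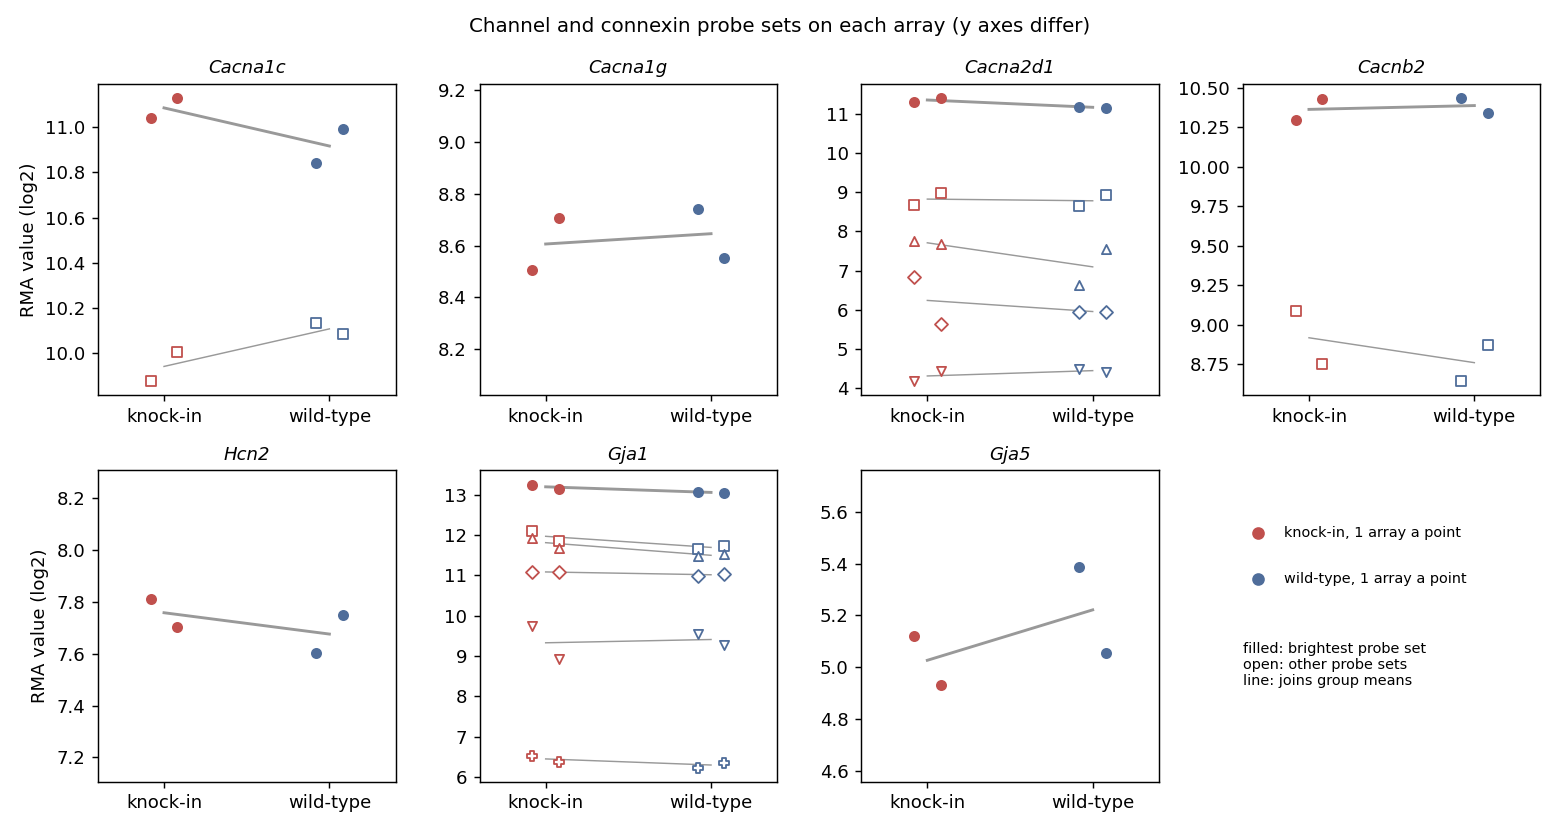
RMA values on the log2 scale (y axes, which differ between genes) on each of the 2 knock-in (left) and 2 wild-type (right) arrays for the 18 probe sets of 7 genes. Filled points are the brightest probe set of a gene, open points its other probe sets, and lines join the group means; the 2 Cacna1c probe sets slope in opposite ways.

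Cacna1c encodes the pore of the cardiac L-type channel, and its 2 probe sets disagreed. The brighter one had RMA values of 11.04 and 11.13 on the knock-in arrays, against 10.84 and 10.99 on the wild-type arrays. Both knock-in values lay above both wild-type values. Its log2 difference was 0.17, with a 95% interval from −0.10 to 0.44 (limma adjusted p = 0.569). The dimmer probe set had values of 9.88 and 10.005 in knock-in hearts and 10.13 and 10.08 in wild-type hearts, so that here both knock-in values lay below. Its log2 difference was −0.17 (−0.43 to 0.10, limma adjusted p = 0.563).

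The brighter minus the dimmer Cacna1c value, taken within each array, was 1.16 and 1.12 in knock-in hearts, against 0.71 and 0.91 in wild-type hearts. This measure, chosen after the values were seen and given without a test, differed by 0.33. The name of the brighter probe set ends in _a_at, which Affymetrix used for sets matching several transcripts of 1 gene. Without probe sets of such names, the gene is represented by the dimmer one.

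Cacna2d1 encodes the α2δ subunit, which brings L-type channels to the cell surface. Its brightest probe set had values of 11.30 and 11.41 in knock-in hearts, against 11.18 and 11.15 in wild-type hearts. The groups did not overlap, and the log2 difference of 0.19 had a 95% interval from −0.07 to 0.45 (limma adjusted p = 0.524). In fold terms it was 1.14 (0.951 to 1.36). Among its 4 other probe sets the differences ranged from −0.14 to 0.61.

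The difference of 0.61 came from a Cacna2d1 probe set with values of 7.75 and 7.67 in knock-in hearts and 6.63 and 7.56 in wild-type hearts. Wild-type replicate 1 stood apart as the low value. Without that array the difference was 0.15 (−0.17 to 0.47), and without wild-type replicate 2 it was 1.08 (limma adjusted p = 0.143). Another Cacna2d1 probe set spread most within the knock-in group, at 6.84 and 5.64, while both wild-type arrays had the same value of 5.95. Its difference of 0.28 turned to −0.31 without knock-in replicate 1.

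Cacnb2 encodes the β subunit that chaperones the L-type pore and tunes its gating. By its brighter probe set it had values of 10.30 and 10.43 in knock-in hearts, against 10.44 and 10.34 in wild-type hearts. The groups overlapped fully, with a log2 difference of −0.02 (−0.29 to 0.25, limma adjusted p = 0.945). The dimmer probe set differed by 0.16 (−0.21 to 0.52), also with overlapping groups.

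Cacna1g encodes the pore of a T-type channel, active at low voltage and known in the sinoatrial and atrioventricular nodes. Its only probe set had values of 8.51 and 8.70 in knock-in hearts, against 8.74 and 8.55 in wild-type hearts. The values interleaved, and the log2 difference was −0.04 (−0.35 to 0.27, limma adjusted p = 0.918).

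Hcn2 encodes a pacemaker channel pore that, beside Hcn4 in the node, is found in working myocardium. Its values were 7.81 and 7.70 in knock-in hearts, against 7.60 and 7.75 in wild-type hearts. The groups overlapped, with a log2 difference of 0.08 (−0.19 to 0.36, limma adjusted p = 0.784), or 1.06-fold (0.874 to 1.28). The log2 difference was 0.01 without wild-type replicate 1 and 0.16 without wild-type replicate 2.

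Gja1, the Cx43 gene, was measured by 6 probe sets, and in 5 of them both knock-in values lay above both wild-type values. The brightest averaged 13.20 ± 0.08 in knock-in hearts and 13.06 ± 0.0037 in wild-type hearts (SD, n = 2 each). Its values were 13.25 and 13.14 on the knock-in arrays, against 13.06 and 13.05 on the wild-type arrays. That is a log2 difference of 0.14 (−0.12 to 0.40, limma adjusted p = 0.611), or 1.10-fold (0.921 to 1.32).

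One Gja1 probe set had the smallest p among all 18. It read 11.94 and 11.69 in knock-in hearts, against 11.47 and 11.52 in wild-type hearts, a log2 difference of 0.31 (0.01 to 0.61, limma unadjusted p = 0.0424, adjusted p = 0.461). A neighbouring value came from a probe set at 12.09 and 11.84 in knock-in hearts and 11.65 and 11.74 in wild-type hearts, with a difference of 0.28 (−0.03 to 0.58). Knock-in replicate 1 was the highest array in both, and without it the differences were 0.19 and 0.15.

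The remaining Gja1 probe sets differed by 0.15, 0.07 and −0.08. The last of these held 9.73 and 8.92 in knock-in hearts, against 9.54 and 9.28 in wild-type hearts, so that knock-in replicate 1 was the highest and knock-in replicate 2 the lowest of the 4 arrays. Its difference was −0.49 without knock-in replicate 1 and 0.33 without knock-in replicate 2. Of the 6 probe sets, 4 have names ending in _x_at, which Affymetrix used where some probes also match other sequences. The 6 measure 1 gene on the same arrays and are not 6 independent results.

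Gja5, the Cx40 gene, had values of 5.12 and 4.93 in knock-in hearts, against 5.39 and 5.06 in wild-type hearts. The groups overlapped, and the log2 difference was −0.19 (−0.55 to 0.16, limma adjusted p = 0.603). Its only probe set lay below the median of each array, as did the dimmest probe set of Cacna2d1. Leaving out 1 array moved the Gja5 difference between −0.36 and −0.03.

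**Figure D2:**
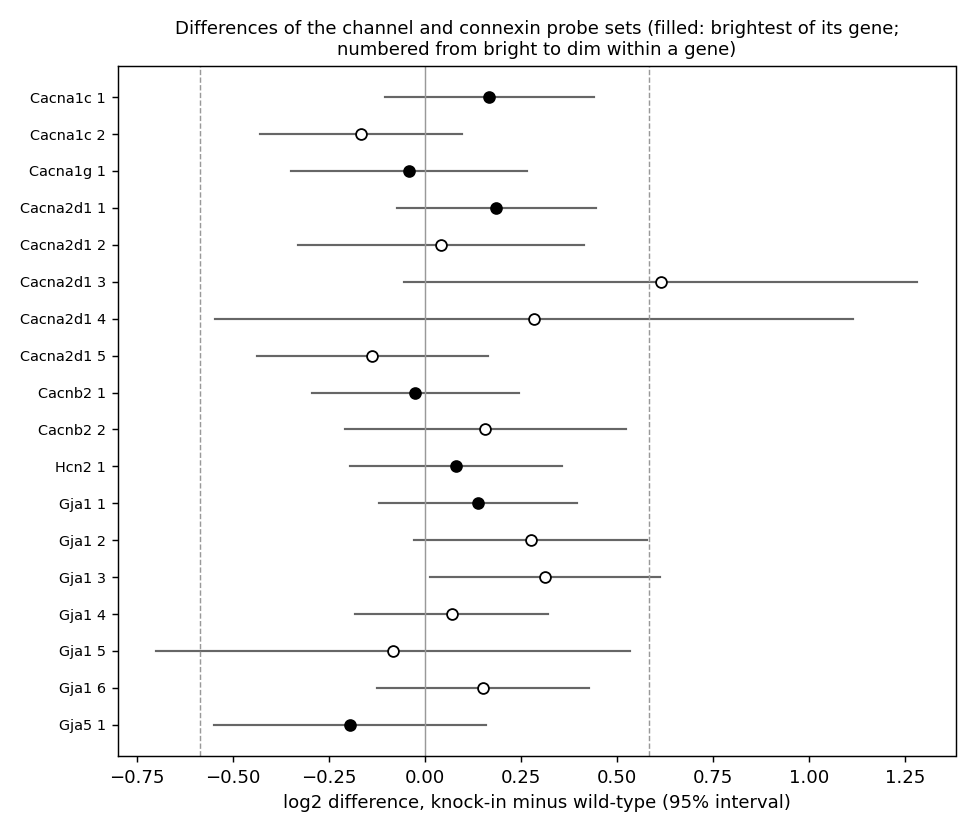
Log2 difference, knock-in minus wild-type (x axis), with its 95% interval from the limma fit for each of the 18 probe sets, numbered from bright to dim within a gene. Filled points are the brightest probe set of a gene and dashed lines mark a 1.5-fold change; the intervals of the 7 filled points lie between the dashed lines.

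Separation of the groups was frequent among the members, and it was frequent on these arrays in general. For 8 of the 18 probe sets both knock-in values lay above both wild-type values, against 18.5% of all probe sets, and for 1 both lay below, against 26.7%. In either direction 45.2% of all probe sets were separated. Of those 8, 5 belong to Gja1 and 2 to Cacna2d1. By the brightest probe set of each gene, 3 of 7 genes were separated upward and 0 downward, against 22.5% and 24.1% of all genes and 46.5% in either direction.

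Differences also went with brightness. Among the 4291 probe sets averaging 10 or more, a level set after seeing the data, 69.3% were higher in knock-in hearts, 37.7% were separated upward and the median log2 difference was 0.06. Of the 8 member probe sets that bright, 6 were higher and the same number were separated upward, with a median of 0.15. Over all probe sets 41.4% were higher and the median was −0.04. The part of this tilt in the members' differences was not tested. With arrays brought to 1 distribution by quantile normalization, the brightest probe sets of Cacna1c and Gja1 each differed by 0.09 and that of Cacna2d1 by 0.12, while Cacna1g and Cacnb2 differed by −0.13 and −0.10.

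The genes that work with the members were described by 6 lists. Of 105 listed genes 85 were measured, and 0 passed the limma test over all probe sets, where 0.011% of all genes did. At an unadjusted p under 0.05, 5 were higher and 2 lower, together 8.24% of those measured against 10.2% of all genes, or 5.45% higher and 4.76% lower. The median log2 difference over all genes was −0.01.

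Other calcium channel subunits held 16 measured genes, of which 2 were higher and 14 lower in knock-in hearts, with a median of −0.13. The 14 include Cacna2d2, whose difference was 0.00 and below zero only by rounding error. The median was −0.06 after quantile normalization and −0.05 without wild-type replicate 1. Most were dim: 12 had a mean under 7, of which 10 were lower, and 74.5% of all genes that dim were lower. Cacna1d, the L-type pore of nodal and atrial cells, had values of 5.90 and 5.92 in knock-in hearts, against 6.52 and 6.20 in wild-type hearts. Its difference of −0.45 (−0.77 to −0.12, limma adjusted p = 0.458) was not seen in its other probe set, which differed by 0.00. The R-type pore gene Cacna1e and the γ subunit gene Cacng1 differed by −0.32 and −0.23.

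The 14 measured regulators of calcium channels split into 8 higher and 6 lower, and their median of 0.02 was −0.03 after quantile normalization. Gem, a small GTPase that inhibits L-type channels, had values of 5.99 and 5.38 in knock-in hearts and 4.99 and 5.27 in wild-type hearts, a dim gene with a difference of 0.55 (0.04 to 1.07). Akap7, which anchors protein kinase A at the L-type channel, differed by 0.28 (0.01 to 0.54), but by −0.19 in its other probe set. Adcy5, an adenylyl cyclase of the β-adrenergic pathway, differed by −0.29.

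In the list of pacemaker channel relatives and partners, 2 of 9 measured genes were higher and 7 lower, and the median was −0.09. The groups did not overlap for any of the 9, while 22.5% of all genes were separated upward and 24.1% downward. The median was −0.16 after quantile normalization and −0.03 with arrays shifted to 1 median. Pex5l, whose product binds HCN channels and sets their surface level in neurons, differed by −0.34 (−0.60 to −0.07), and its 3 other probe sets by −0.27 to 0.02. Popdc3, of the cyclic AMP-binding Popeye family, had values of 10.33 and 10.37 in knock-in hearts, against 9.88 and 10.16 in wild-type hearts. It differed by 0.33 (0.02 to 0.64), and the G protein β subunit gene Gnb1 by 0.24, where its other probe sets gave −0.12 and 0.36. None of these passed the test (limma adjusted p from 0.458).

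The list of other gap junction genes also holds pannexin genes. Its 15 measured genes split into 7 higher and 8 lower, the median was −0.08, and 12 of them had a mean under 7. That median was −0.15 without wild-type replicate 2, and 0.05 over the genes left by a filter on dim probe sets. Gja3, the lens connexin Cx46 gene, differed by 0.31 (0.00 to 0.62) by one probe set and by −0.03 by the other. Gje1 and Gjc3 differed by −0.25 and −0.21 at levels of 3.12 and 4.64 in knock-in hearts, against 3.37 and 4.85 in wild-type hearts.

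Partners of Cx43 at the intercalated disc were mostly higher by small amounts, with 13 of 16 genes higher, a median of 0.08, and 7 separated upward, against 22.5% of all genes and 37.7% of probe sets averaging 10 or more. After quantile normalization that median was 0.04. Of these genes, 12 had a mean of at least 10, and 10 of the 12 were higher, against 69.1% of all genes that bright. The desmosomal gene Dsp had values of 13.29 and 13.10 in knock-in hearts, against 12.84 and 13.06 in wild-type hearts. It differed by 0.25 (−0.07 to 0.56), the cadherin gene Cdh2 by 0.23 and the plakoglobin gene Jup by 0.14, and 0 of the 16 had an unadjusted p under 0.05.

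Transcription factors of the conduction system were mixed, with 9 of 15 higher, 6 lower and the median at 0.03. Tbx18, needed for the sinus node to form, differed by 0.39 (0.06 to 0.72) by one probe set and 0.02 by the other. Gata6 read 10.68 and 10.87 in knock-in hearts, against 11.11 and 11.003 in wild-type hearts, a difference of −0.28 (−0.57 to 0.01). Irx5, which shapes the ventricular repolarisation gradient, differed by 0.34 (−0.10 to 0.79).

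**Figure D3:**
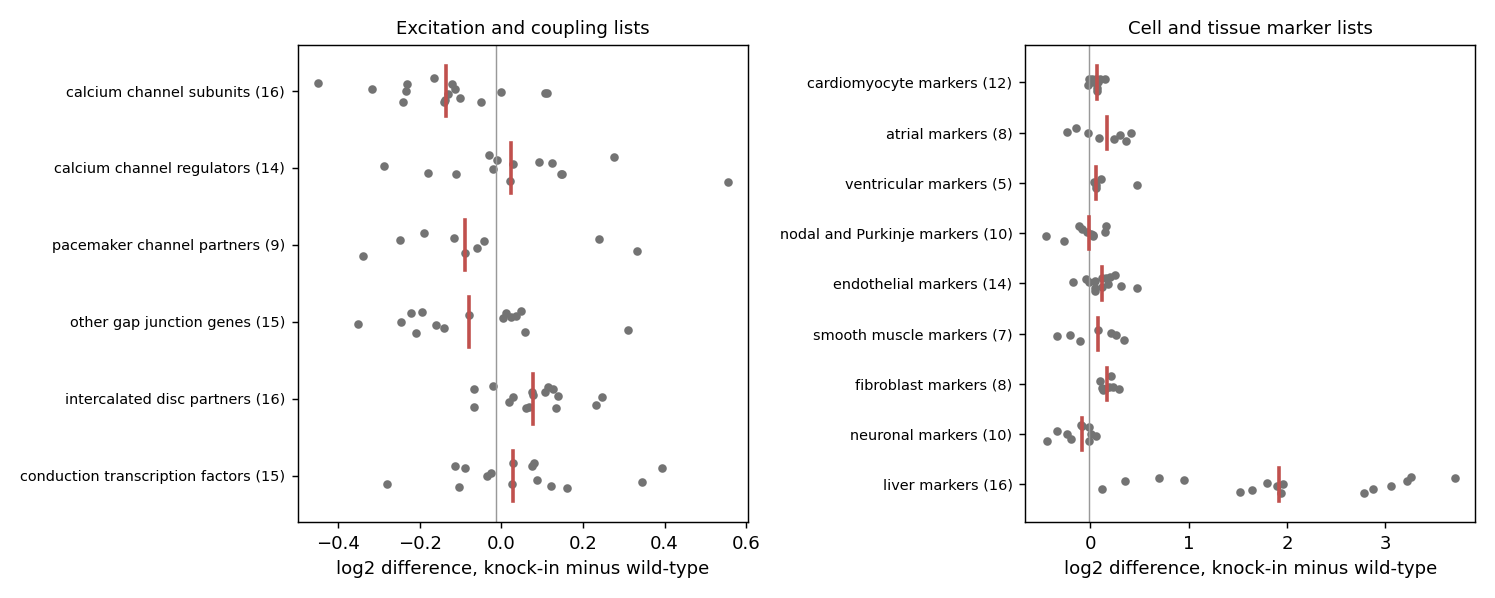
Log2 difference, knock-in minus wild-type (x axes, whose ranges differ), of each measured gene in the 6 lists of partner genes (left) and the 9 lists of cell and tissue markers (right), with the number of genes measured in brackets. Red bars are list medians and the grey line is the median of all genes, −0.01; the liver markers stand apart with a median of 1.92.

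The makeup of the tissue was described with 9 marker lists, in which 0 genes passed the limma test. Over all genes 46.9% were higher in knock-in hearts. Of genes with a mean of at least 10, 69.1% were higher, and of those under 7, 74.5% were lower. Cardiomyocyte markers were bright on every array, with list medians between 14.39 and 14.44 in knock-in hearts and 14.33 and 14.36 in wild-type hearts. All 12 had a mean of at least 10, and 10 of 12 were higher, with a median difference of 0.07.

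Atrial markers bear on Gja5, Hcn4 and Cacna1g, which are known from atrium and node. Of 8 measured, 5 were higher, with a median difference of 0.17 that was −0.04 without knock-in replicate 1. The summed linear signal of the list was 18320 and 16217 in knock-in hearts, against 16218 and 15626 in wild-type hearts. The atrial light chain gene Myl4 had values of 11.95 and 11.76 in knock-in hearts, against 11.47 and 11.40 in wild-type hearts. It differed by 0.42 (0.14 to 0.70, limma adjusted p = 0.458) by one probe set and by −0.09 by the other. Dkk3 differed by 0.37 by its brighter probe set, Nr2f1 by 0.30. The 3 lower genes, named after their values were seen, were Bmp10 at −0.24, Nr2f2 at −0.14 and Nppa at −0.02.

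Ventricular markers were higher in 5 of 5, with a median of 0.06 and Hey2, a dim gene, at 0.48. Nodal and Purkinje markers were higher in 5 of 10, with a median of −0.01 and a range from −0.45 to 0.16. The calcium sensor gene Vsnl1 differed by −0.45 and Ntm by −0.26, both at levels below the array medians, as was the nodal factor gene Isl1, which differed by −0.11. The other probe sets of Vsnl1 and Ntm differed by −0.13 and −0.11. Among the higher genes, named after their values were seen, were Igfbp5 at 0.16 and Cntn2 at 0.15. The part of these markers in the members' values was not tested.

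Endothelial markers form a list that is not limited to the arteries, where Gja5 is found, and so do not describe arterial endothelium alone. They were higher in 11 of 14, with a median of 0.12, Vwf at 0.48 and Cldn5 at 0.31. The median was 0.01 without knock-in replicate 2, or 0.07 when wild-type replicate 2 was left out, and the lowest gene, Sox17, was at −0.18. Smooth muscle markers, from cells that also carry Cacna1c, were higher in 4 of 7, with a median of 0.08, 0.00 after quantile normalization, −0.21 without knock-in replicate 2 and 0.37 without knock-in replicate 1. Fibroblast markers were higher in 8 of 8, with a median of 0.17, 0.07 without knock-in replicate 2 and 0.28 without knock-in replicate 1. Of the 8, 5 had a mean of at least 10. Tcf21 differed by 0.29 by its brighter probe set and by −0.15 by the other. Neuronal markers were lower in 8 of 10, with a median of −0.09 and Prph at −0.44. Of the 10, 7 had a mean under 7, and 5 of the 7 were lower.

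Liver markers were higher in 16 of 16, with a median difference of 1.92, and were unequal between the knock-in arrays. Their list medians were 8.72 and 7.06 in knock-in hearts, against 5.66 and 5.18 in wild-type hearts. The summed linear signal was 8253 and 3164 in knock-in hearts, against 1398 and 909.7 in wild-type hearts. Albumin (Alb) differed by 3.71. Without knock-in replicate 1, the array with most of this signal, the median difference of the liver markers was 1.07. In that setting the brightest Gja1, Cacna2d1 and Cacna1c probe sets differed by 0.08, 0.24 and 0.21. Those of Hcn2, Cacna1g and Cacnb2 differed by 0.03, 0.06 and 0.04, and that of Gja5 by −0.29. The part of the liver signal in the members' values was not tested.

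As a check of the labels, Gsk3a, the gene carrying the substitution, had values of 10.62 and 10.80 in knock-in hearts and 11.16 and 11.08 in wild-type hearts, with a log2 difference of −0.42 (−0.70 to −0.14, limma adjusted p = 0.458). A substitution need not alter a transcript's level, so this checks little. Array medians lay between 6.14 and 6.16 for knock-in and 6.19 and 6.23 for wild-type. For the Gapdh control, the log2 signal at the 3′ end minus that at the 5′ end, which follows RNA quality, was 0.54 and 0.76 for knock-in, against 0.62 and 0.61 for wild-type.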

How the data were processed

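Transcript levels of mouse heart were measured on 4 Affymetrix arrays, 2 knock-in and 2 wild-type. The deposited values are on the log2 scale, and the submitters' processing notes name RMA and Affymetrix Expression Console. RMA corrects background, equalises array distributions at the level of probes and combines the probes of a set. This reduces a shift common to most genes, but a small one remained. The median log2 difference over all probe sets was −0.04. The labels state that normalisation joined the wild-type arrays with these knock-in arrays only. For version and filters, the sources used here give nothing.

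Of 45101 probe sets, 64 controls were left out. The annotation of the array supplied names: 34945 probe sets had 1 symbol, 932 several and 9160 none listed. Symbols were updated by gene ID through RefSeq's GRCm38.p6 gene table (18032 genes matched). A gene is represented by its probe set of highest mean over the 4 arrays.

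R 4.3.3 with limma 3.58.1 gave the differences (functions lmFit and eBayes without covariates), and p-values were adjusted by Benjamini-Hochberg over 45037 probe sets. The fit had 2 residual degrees of freedom plus a prior of 4.54, and the median standard error was 0.12. It was also run on simulated arrays with known changes. Their noise was independent and drawn from the fit's own prior. That run checks the code and cannot check the fit's assumptions on these arrays. Intervals are 95% and unadjusted. The p-values rest on the spread among these arrays, which may be technical. No array batch was used here. Precision is limited by how few arrays there are.

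The members and lists were chosen with earlier results of these data known. The text names all measured members and, of each list, genes among the 3 of smallest limma p. Outside that rule, Bmp10, Nr2f2, Nppa, Igfbp5, Cntn2, Sox17 and Cacna2d2 were named after their values were seen. Same-numbered arrays are not paired by the labels, and their deviations from group means correlated at 0.08 across the groups. Promoter motifs were chosen after values had been seen. Tables and plots used Python 3.11.15, pandas 2.3.3, numpy 2.4.6 and matplotlib 3.10.9.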

Additional observations from a re-analysis of the deposited data

How the results depend on the processing

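No member probe set passed the limma test under any of the 16 alternatives run: normalization, filters, prior, array weights, replicate block, each array left out, probe set summary and threshold. Over all probe sets the count was 3, and it was 11 with arrays shifted to 1 median, 1 among probe sets averaging 7 or more, 7 genes with each gene's probe sets averaged, 5 at an adjusted p of 0.1, and 0 to 2 with 1 array left out. With the replicate number as a block it was 4, and no member's call changed; the numbers are not shown to pair arrays. Of 103 recomputed differences of the 7 genes, 95 kept their direction and 8 turned. Many of the 95 could not turn. The filters on dim probe sets, the priors, the array weights and the replicate block left the difference of each gene they kept unchanged. So did averaging for genes with a single probe set. Cacna1c was −0.17 without probe sets named _s_at, _x_at or _a_at. Cacna1g was 0.021 with arrays shifted to 1 median, and from −0.14 to 0.059 with 1 array left out. Cacnb2 was 0.036 with arrays shifted to 1 median, 0.067 with its probe sets averaged, and from −0.090 to 0.042 with 1 array left out. The causes were not tested. With 1 array left out, the lone array of a group is assumed to vary like the others. Gja5 gives no value under either filter on dim probe sets. Of 195 recomputed list medians, 179 moved by less than the spread between arrays of a group. Some of the 179 could not move. The array weights and the replicate block left each list median unchanged, and the filters on dim probe sets did so for cardiomyocyte and fibroblast markers. For liver markers that spread was wide: a median of 1.07 without knock-in replicate 1, against 1.92 with all arrays, counted among the 179.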
